A study of Homo sapiens with 2 samples.

Results

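The 40 genes described here belong to the autophagy and lysosome system of C4-2B cells, an established human castration-resistant prostate cancer (CRPC) line. They were found by symbol among the 60671 distinct genes of the count table, and all 40 were present. One library of polyadenylated RNA came from cells given vehicle, and the other from cells kept overnight with 1 µM (R)-9b, an inhibitor of the kinase ACK1 (gene TNK2). The dose and duration come from the sample labels, since the RNA sequencing methods state neither, and no genetic change is named for either culture. The labels also give a breast tumour as the cell type, whereas 7 of 7 prostate luminal markers had more than 1000 counts in both libraries and no breast marker of 4 had more than 10.

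Macroautophagy wraps cytoplasm in a double membrane that ULK1, the beclin complex and the ATG9 and ATG2 lipid machinery start, and that the ATG7 and ATG3 conjugation chain coats with ATG8 proteins. Cargo receptors such as p62 bind ubiquitin on one side and ATG8 proteins on the other, and are broken down together with what they carry. The vesicle then fuses with the lysosome, which a proton pump (the V-ATPase) keeps acidic so that cathepsins and glycosidases can work. The transcription factors TFEB, TFE3 and MITF bind E-box letters in promoters of many of these genes and are held in the cytoplasm when mTORC1 is active.

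E-box letters were looked for in the 300 bases from 250 before to 50 after each annotated RefSeq transcript start (GRCh38.p14). Of the 40 genes, 34 had an entry, and MAP1LC3A, CTSB, HEXA, ATP6V1A, LAMP2 and ATP6V1H had none. CACGTG, which reads the same on both strands, was present for 7 of the 34 genes (20.6%), namely LAMP1, MCOLN1, GAA, CTSA, CTSD, ATP6V0D1 and ATG3. Counted by promoter, 7 of the 46 entries of these genes held it (15.2%), against 2548 of all 35116 promoters (7.26%) and 8.34% of those of protein-coding genes. The 7 genes also held the longer form TCACGTG, which contains CACGTG, on one of the strands. Counted by promoter and not by gene, 3.71% of all promoters and 4.44% of those of protein-coding genes did. More than a single E-box was found in 5 of the 46 entries (10.9%), against 0.664% of all promoters. LAMP1 had 6 of them, and it was the only promoter of all 35116 with 6 or more.

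Windows of 30 bases around the E-box nearest the start of each of the 7 genes are shown because MiT/TFE factors are known to bind these letters, with 1 further LAMP1 window from the closely spaced run upstream. Capitals mark CACGTG, and sequences read 5′ to 3′ along the strand of the gene.
LAMP1 at chr13:113297226-113297255, plus strand: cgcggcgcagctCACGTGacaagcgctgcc
LAMP1 at chr13:113297068-113297097, plus strand: gccgctgcgggtCACGTGccgctgcgggtc
MCOLN1 at chr19:7522598-7522627, plus strand: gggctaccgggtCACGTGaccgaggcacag
GAA at chr17:80101538-80101567, plus strand: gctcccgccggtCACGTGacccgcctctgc
CTSA at chr20:45891298-45891327, plus strand: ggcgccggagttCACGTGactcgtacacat
CTSD at chr11:1763957-1763986, minus strand: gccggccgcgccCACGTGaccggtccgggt
ATP6V0D1 at chr16:67481199-67481228, minus strand: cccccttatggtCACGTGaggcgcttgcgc
ATG3 at chr3:112561940-112561969, minus strand: agagtctagtgtCACGTGaggccccggtgg

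By role, the letters were present for 3 of 6 lysosomal enzymes and 3 of 5 other lysosomal genes, for 1 of 20 genes of the autophagy machinery and for 0 of the 3 transcription factors. Of the 16 E-boxes in these promoters, 11 began within the 80 bases before the start. The composite motif TGATGNAA, which ATF4 binds with a C/EBP partner, was searched on both strands and was found for 0 of the 34 genes. It was present in 3.62% of all promoters and 2.69% of those of protein-coding genes, shares counted by promoter and not by gene. At such low shares, no lack of the motif is read from 34 genes. A match only describes the letters in this window, and the absence of one says nothing about the factor.

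**Figure D1:**
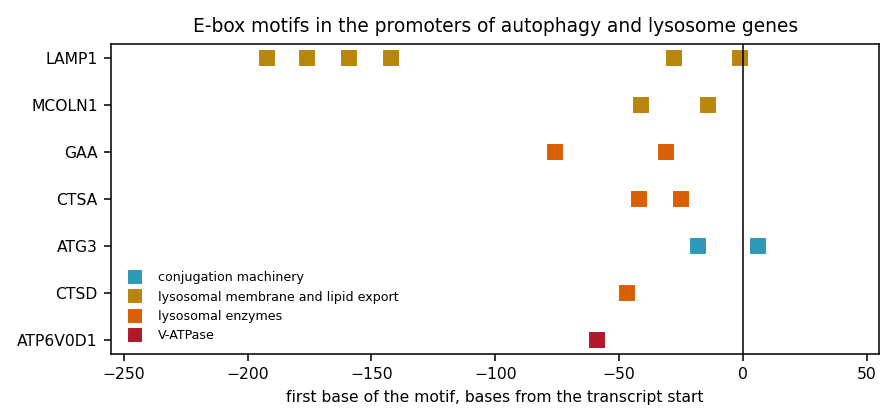
Position of each CACGTG in the promoters of the 7 genes that hold it, in bases from the transcript start (x axis), with 1 row per gene and the colour giving its role. LAMP1 carries 6 E-boxes and the other 6 genes 1 or 2 each, with 11 of the 16 in the 80 bases before the start.

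The vehicle library held 65207444 counts and the (R)-9b library 57653965, and all 40 genes passed the minimum of 10 counts over both, 38 of them with at least 1000. Ratios are (R)-9b over vehicle after TMM scaling, a factor per library that assumes most genes are unchanged, and are given on the log2 scale with an exact (Clopper-Pearson) 95% interval. With a single library per condition there is no replicate check, and the intervals cover counting error only, PCR copies not being separate molecules. Counts may also be of mates rather than pairs, in which case the intervals are too narrow even for counting error. A gene is called higher or lower where its whole interval lies beyond 1.5-fold, that is beyond 0.585 on the log2 scale. Mitochondrially encoded genes took 1.49% of the vehicle counts and 9.54% of the (R)-9b counts, and scaling by total counts in place of TMM lowered each log2 ratio by 0.06. In bulk RNA, fewer cells with a transcript and less of it per cell cannot be told apart. Of 7 macrophage markers, whose cells are rich in lysosomes, none had more than 29 counts and PTPRC and C1QA had 0 in both libraries. The summed level of 5 fibroblast markers was 19.6 CPM (counts scaled to a common library size) with vehicle and 39.2 CPM with (R)-9b, most of it COL1A1. PDGFRB had 181 counts in vehicle and 205 in (R)-9b, and COL1A2, DCN and LUM had no more than 6 in either library. The part of the fibroblast markers' cells in the ratios was not tested.

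Of the 40 genes, 2 were called higher (5%) and 5 lower (12.5%). Among all 23446 genes compared, 8.71% were called higher and 7.74% lower, and among the 10240 genes with at least 1000 counts the shares were 6.46% and 7.54%. TFEB and GLA were the 2 higher genes, and MAP1LC3B, SQSTM1, MITF, WIPI1 and ATG13 were the 5 lower ones. The median log2 ratio of the 40 genes was −0.09, against −0.00 over all genes compared and −0.03 over those with at least 1000 counts. Measured against a ratio of 1 alone, 12 of the 40 intervals lay wholly above it, 20 wholly below it and 8 spanned it, where 29.8% of all genes lay above and 31.1% below. With counts halved to stand for read pairs, the intervals of ATG2A, WIPI2 and ATP6V1A also spanned a ratio of 1. Of the 40 genes 38 had at least 1000 counts, against 10240 of the 23446 compared. Intervals narrow as counts rise, so these shares are not matched for counts.

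**Figure D2:**
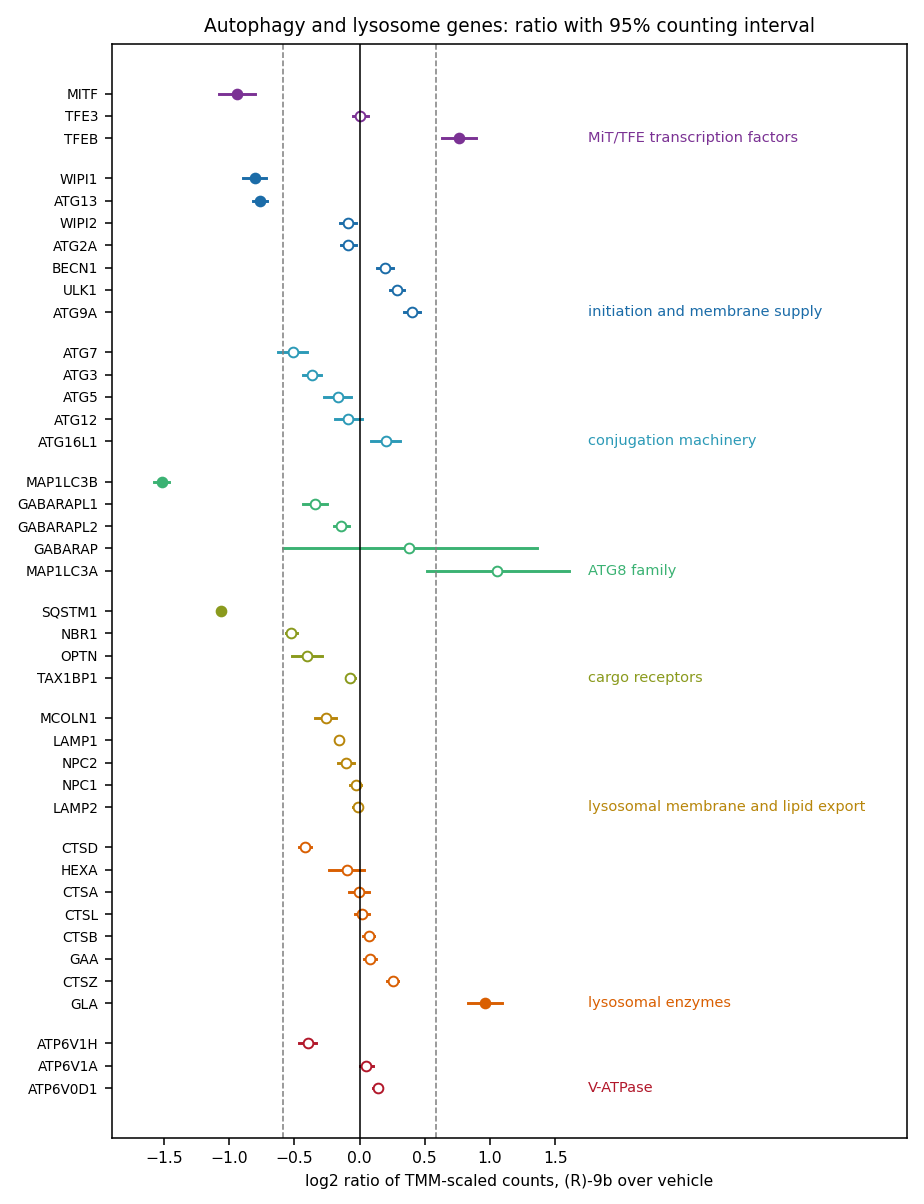
Log2 ratio of TMM-scaled counts, (R)-9b over vehicle, for each of the 40 genes by role, with bars for the 95% counting interval (1 library per condition), dashed lines at 1.5-fold and filled points for the 7 called genes. MAP1LC3B is lowest at −1.52, and the 4 called genes of the autophagy machinery all lie to the left.

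The MiT/TFE transcription factors, the master regulators of lysosomal gene expression, went 3 ways. TFEB (ENSG00000112561, chr6:41683978-41736259, GRCh38) had 796 counts in vehicle and 1144 in (R)-9b. That is a 1.69-fold higher level, with a log2 ratio of 0.76 and an interval from 0.63 to 0.89. The call on TFEB was lost where counts were halved to stand for read pairs, where libraries were scaled by total counts and where estimated transcript counts were used, each time with the gene still higher. MITF (ENSG00000187098, chr3:69739435-69968337), best known from melanocytes and osteoclasts, moved in the opposite direction. It had 1437 counts in vehicle and 635 in (R)-9b, a log2 ratio of −0.94 with an interval from −1.08 to −0.80. TFE3, the most abundant of the family at 18.5 and 18.6 CPM per kilobase of exon in vehicle and (R)-9b, had 5289 and 4498 counts and a log2 ratio of 0.00 (interval −0.05 to 0.06). Per length, TFEB stood at 2.12 in vehicle and 3.59 in (R)-9b and MITF at 3.01 and 1.57, so the order of these 2 factors differed between the libraries. In the transcript table, most of MITF was the transcript MITF-216, with 381 estimated counts in vehicle (70.0% of the gene) and 171 in (R)-9b (66.5%). MITF-212, with 66.4 and 53.5 estimated counts, differed less between the libraries, and MITF-209 had 49.6 in vehicle and 0 in (R)-9b.

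Among the 7 genes that start the autophagosome and supply its membrane, 2 were called lower and none higher, with a median log2 ratio of −0.09. The shares over all genes compared were 7.74% lower and 8.71% higher. ATG13 (ENSG00000175224, chr11:46617527-46674818), the ULK1 subunit through which mTORC1 restrains the kinase complex, had 9084 counts in vehicle and 4544 in (R)-9b. Its log2 ratio was −0.76 (interval −0.81 to −0.71), a 1.70-fold lower level. WIPI1 (ENSG00000070540, chr17:68420948-68457513), which binds the phosphoinositide that the beclin complex makes, had 3181 and 1546 counts and a log2 ratio of −0.80 (interval −0.89 to −0.72). On the opposite strand ARSG covers 24.3% of the exon bases of WIPI1, with 928 and 1038 counts of its own, and the strand setting of the counting is not given in the sources used here. WIPI2, the related protein that recruits ATG16L1, had 5173 and 4125 counts and a log2 ratio of −0.09. A further 3 initiation genes had intervals wholly above a ratio of 1, as 29.8% of all genes compared did, and were not called. The kinase ULK1 had 5184 and 5371 counts (log2 ratio 0.29), the scramblase ATG9A had 3967 and 4448 (0.40), and BECN1, the beclin subunit of the lipid kinase complex, had 4270 and 4144 (0.19). AC068946.2 shares 38.8% of the exon bases of ATG9A on the same strand, and the estimated transcript counts gave ATG9A a log2 ratio of 0.37. The lipid transporter ATG2A had 5405 and 4315 counts and a log2 ratio of −0.09. Within the complex that ULK1 forms, the catalytic subunit and ATG13 thus stood on opposite sides of 0.

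The 5 conjugation genes, which attach ATG8 proteins to lipid, held no call and had a median of −0.17. ATG7, the E1-like enzyme at the head of both conjugation chains, was lowest with 1816 counts in vehicle and 1080 in (R)-9b and a log2 ratio of −0.51 (interval −0.62 to −0.40). VGLL4 on the opposite strand covers 18.1% of the exon bases of ATG7 and had 7416 counts in vehicle and 3985 in (R)-9b. Its part in the ATG7 counts was not tested. ATG3, the E2-like enzyme that loads ATG8 onto lipid, had 4311 and 2835 counts (−0.37). Both therefore had intervals below a ratio of 1 but not beyond 1.5-fold. In the transcript table, however, ATG3 had 472 and 198 estimated counts, a log2 ratio between −1.25 and −0.76 that would be called lower. That table listed 8 of its 9 annotated transcripts and held only 0.11 estimated counts per gene count in vehicle and 0.07 in (R)-9b. Over the 40 genes the estimated counts in vehicle were typically 36.3% of the gene counts. ATG5, the target of ATG12, had 1748 and 1319 counts (−0.17), and ATG12 had 1658 and 1325 (−0.09, interval −0.19 to 0.02). ATG16L1, which places the ATG12 and ATG5 conjugate on the membrane, was alone above 0, with 1301 and 1268 counts and a log2 ratio of 0.20.

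The ATG8 family gave the lowest ratio of all 40 genes. MAP1LC3B (ENSG00000140941, chr16:87383995-87404779), whose lipidated protein LC3B is the usual autophagosome marker, had 9920 counts in vehicle and 2937 in (R)-9b. The log2 ratio of MAP1LC3B was −1.52 (interval −1.58 to −1.46), a 2.86-fold lower level, and 5.34% of all genes compared had a lower ratio. Its near-copy MAP1LC3B2, which can share reads with it, had 272 and 89 counts and a log2 ratio of −1.37. GABARAPL2 and GABARAPL1, members of the GABARAP branch, were not called, with 6017 and 4636 counts (−0.14) and 2339 and 1564 counts (−0.34). In the transcript table GABARAPL1 had 154 estimated counts in vehicle and a log2 ratio of −1.37 that would be called lower. That table listed 18 of its 19 annotated transcripts and held only 0.066 estimated counts per gene count in vehicle and 0.032 in (R)-9b. Its main transcript there, GABARAPL1-205, had 107 estimated counts in vehicle and 0 in (R)-9b. In vehicle, MAP1LC3B and GABARAPL2 stood close together per length, at 28.0 and 29.8 CPM per kilobase, whereas in (R)-9b they stood at 9.79 and 27.1. MAP1LC3A had only 46 and 81 counts, and its log2 ratio of 1.05 had an interval from 0.51 to 1.61 that crossed the 1.5-fold limit.

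GABARAP could not be read from the gene counts. It had 19 counts in vehicle and 21 in (R)-9b (log2 ratio 0.38, interval −0.58 to 1.36), but 6719 and 4772 estimated counts in the transcript table. The gene counts hold unambiguous reads only, and the annotated gene AC120057.2 on the same strand covers 691 of the 762 bases (90.7%) of GABARAP-206, the most abundant GABARAP transcript with 5334 estimated counts in vehicle. AC120057.2 itself had 0 counts in both libraries. From the estimated counts, the log2 ratio of GABARAP was −0.24 (interval −0.30 to −0.19), opposite in sign to that of its gene counts and not beyond 1.5-fold. A further 2 genes of the 40 also had more estimated counts than gene counts, although the estimated counts over the 40 genes were typically 36.3% of the gene counts. CTSD had 15625 estimated against 9979 gene counts in vehicle, and HEXA had 1625 against 995, with genes on the same strand covering 61.4% and 35.4% of their most abundant transcripts. Their ratios were nearly the same in both tables, at −0.41 and −0.42 for CTSD and −0.11 and −0.10 for HEXA.

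**Figure D3:**
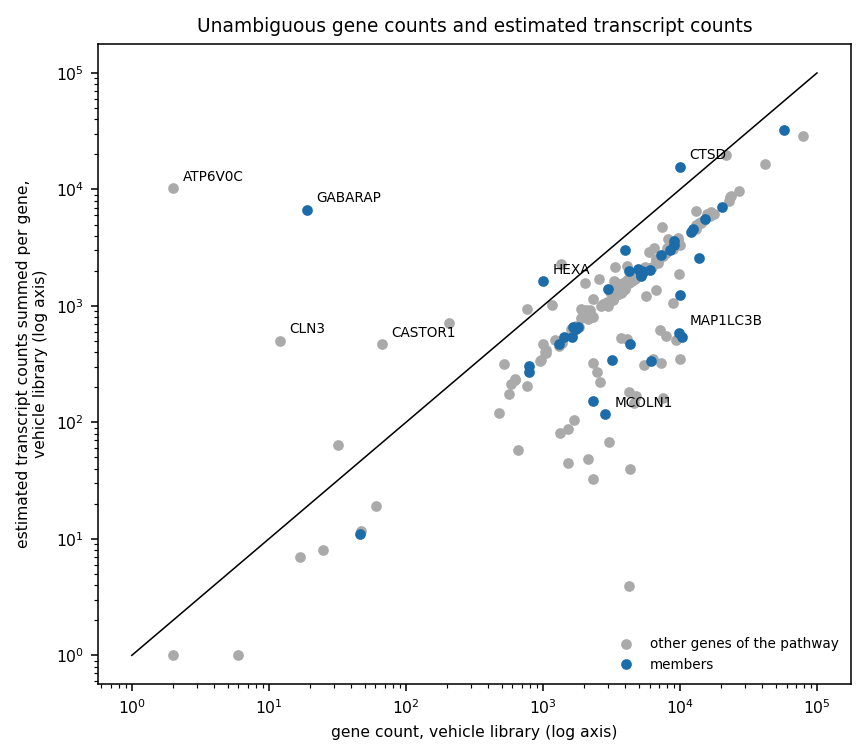
Gene count (x axis) against the estimated transcript counts summed per gene (y axis) in the vehicle library, both on log axes, for the 40 members (blue) and other genes of the pathway (grey), with the line of equal values. GABARAP, with 19 gene counts and 6719 estimated counts, lies far above the line, as does ATP6V0C with 2 and 10219.

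All 4 cargo receptors had intervals below a ratio of 1, and 1 was called lower. Over all genes compared, 31.1% lay below a ratio of 1 and 7.74% were called lower. Those shares are not matched for counts, and no result is read from counts over 4 genes. SQSTM1 (ENSG00000161011, chr5:179806398-179838078), which encodes p62, had 57064 counts in vehicle and 23177 in (R)-9b. Its log2 ratio was −1.06 (interval −1.08 to −1.04), a 2.09-fold lower level, and it was the most abundant of the 40 genes per length in vehicle at 112 CPM per kilobase, against 53.6 in (R)-9b. In (R)-9b, CTSZ stood above it at 74.3. MRNIP on the opposite strand covers 20.7% of the exon bases of SQSTM1 and had 769 and 1124 counts. NBR1, a ubiquitin receptor that works with p62, had 12066 and 7114 counts and a log2 ratio of −0.52 (interval −0.57 to −0.48), just inside the 1.5-fold limit. OPTN, a receptor for mitochondria and bacteria, had 1618 and 1039 counts (−0.40), and TAX1BP1 had 13894 and 11217 (−0.07). The receptors were thus spread from a ratio close to 1 to 0.479 for SQSTM1.

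**Figure D4:**
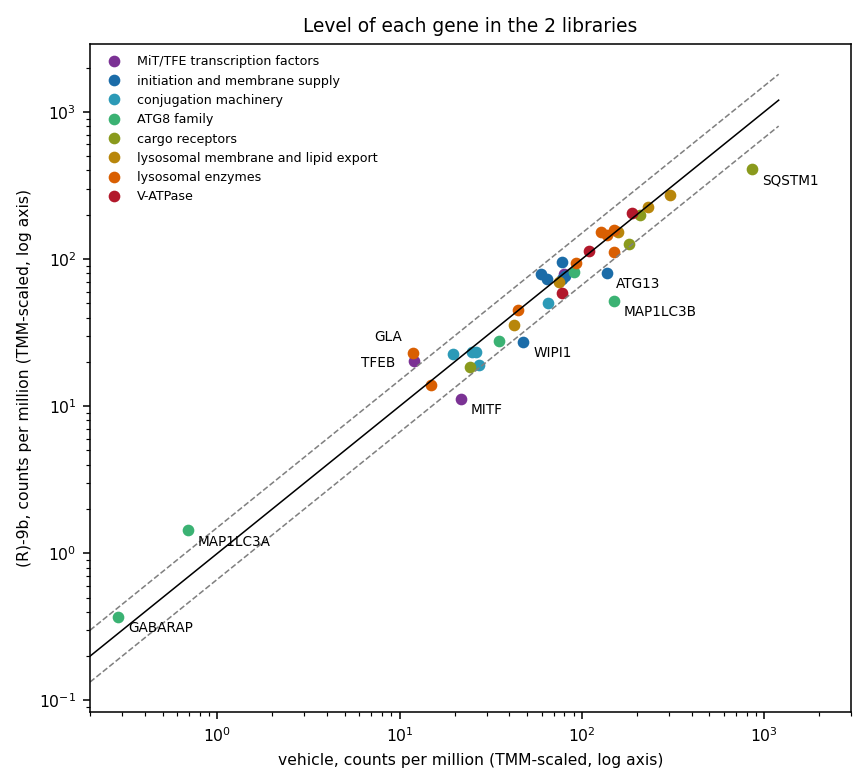
TMM-scaled CPM of each of the 40 genes in vehicle (x axis) and (R)-9b (y axis), both on log axes, coloured by role, with lines for equal levels and for 1.5-fold. SQSTM1, at 857 in vehicle and 410 in (R)-9b, has the most CPM, not corrected for length, of the 40 genes in both libraries and lies below the lines, while most lysosomal genes lie near the line of equal levels.

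The lysosomal membrane and lipid export genes held no call, and their log2 ratios ran from −0.26 to −0.01. LAMP1, the main membrane glycoprotein, had 20207 counts in vehicle and 15378 in (R)-9b (−0.16), and LAMP2 had 15273 and 12827 (−0.01). The cholesterol exporters NPC1 and NPC2 had 10433 and 8660 counts (−0.03) and 4957 and 3914 counts (−0.10). Of the LAMP genes, LAMP1 had the larger difference, a 1.11-fold lower level. For the calcium channel gene MCOLN1 the 2 tables differed in sign. It had 2834 and 2006 gene counts (−0.26, interval −0.34 to −0.18) but only 117 and 170 estimated transcript counts (0.79), in a table that listed 9 of its 10 annotated transcripts. LAMP2 is spliced into forms with different tails, of which LAMP2A serves chaperone-mediated autophagy. The forms were matched by Ensembl transcript ID. LAMP2B made up 70.0% of the LAMP2 estimated counts in vehicle and 67.6% in (R)-9b, with 3914 and 3192. LAMP2A had 644 and 643, or 11.5% and 13.6%, and LAMP2C had 762 and 709, or 13.6% and 15.0%. The order of the forms was the same in both libraries.

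Of the 8 lysosomal enzymes, 1 was called higher and none lower, where 8.71% and 7.74% of all genes compared were. GLA (ENSG00000102393, chrX:101397803-101408012), the alpha-galactosidase lacking in Fabry disease, had 786 counts in vehicle and 1297 in (R)-9b. Its log2 ratio was 0.96 (interval 0.83 to 1.09), a 1.95-fold higher level, and it moved from 5.19 to 10.1 CPM per kilobase. CTSD, the aspartic cathepsin, was the lowest enzyme with 9979 and 6341 counts and a log2 ratio of −0.42 (interval −0.46 to −0.37). The remaining 6 enzymes lay between −0.10 and 0.25. The cysteine cathepsins CTSB, CTSL and CTSZ had 10030 and 8929 counts (0.07), 6164 and 5303 (0.02) and 8461 and 8551 (0.25). CTSA, the protective protein of beta-galactosidase, had 2986 and 2529 counts (−0.00). GAA, the acid alpha-glucosidase lacking in Pompe disease, had 9100 and 8164 counts (0.08), and HEXA, the hexosaminidase subunit lacking in Tay-Sachs disease, had 995 and 788 (−0.10).

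The 3 V-ATPase subunits were not called. ATP6V0D1, of the membrane sector, had 12484 counts in vehicle and 11661 in (R)-9b (0.14), and ATP6V1A, the catalytic subunit, had 7306 and 6423 (0.05). ATP6V1H, a regulatory subunit, was lower than both, with 5180 and 3333 counts and a log2 ratio of −0.40 (interval −0.46 to −0.34).

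The comparison of the autophagy machinery with the lysosomal enzymes took the 21 genes of initiation, conjugation, the ATG8 family and the cargo receptors against the 8 enzymes. Of the machinery, 0 genes were called higher and 4 lower, against 1 higher and 0 lower of the enzymes, beside 8.71% higher and 7.74% lower over all genes compared. Intervals lay wholly below a ratio of 1 for 14 of 21 machinery genes and wholly above it for 5, whereas 1 of 8 enzymes lay below and 4 above, beside 31.1% below and 29.8% above over all genes compared. Those shares are not matched for counts, and genes with few counts have wider intervals. With halved counts, ATG2A and WIPI2 of the machinery no longer lay wholly below a ratio of 1. The median log2 ratio was −0.14 for the machinery and 0.05 for the enzymes, a difference of −0.18, which has no test with 1 library per condition. The ranges overlapped widely. All 8 enzymes lay within the range of the machinery, 14 of the 21 machinery genes lay within the range of the enzymes, and 6 (MAP1LC3B, SQSTM1, WIPI1, ATG13, NBR1 and ATG7) lay below CTSD, the lowest enzyme. Under scaling by total counts the median of the enzymes was −0.01, and from estimated transcript counts it was −0.06, so its sign depended on the scaling and on the table used. The other 8 lysosomal genes (membrane, lipid export and V-ATPase) had a median of −0.07 and no call.

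Summed counts gave the abundant genes more weight. The machinery summed to 150081 counts in vehicle and 88106 in (R)-9b, a log2 ratio of −0.53 (interval −0.54 to −0.52), and the enzymes to 48501 and 41902, a log2 ratio of 0.03 (interval 0.01 to 0.05). The sign of the enzymes' sum turned under other choices, to −0.03 by total counts and −0.19 from estimated transcript counts. SQSTM1 alone made up 38.0% of the machinery's counts in vehicle and 26.3% in (R)-9b. Without SQSTM1 the machinery's summed log2 ratio was −0.28, and without both SQSTM1 and MAP1LC3B it was −0.18. The summed difference therefore rested in large part on these 2 genes. Without CTSD the enzymes' summed log2 ratio was 0.12.

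The log2 ratios of the 7 genes whose promoter held an E-box ran from −0.42 (CTSD) to 0.14 (ATP6V0D1), with a median of −0.16 and no call. The 27 genes without the letters ran from −1.52 to 0.96, with a median of −0.09, and included all 7 called genes. Over all genes compared 8.71% were called higher and 7.74% lower. Few calls are therefore to be looked for among 7 genes, and no difference is read from these counts. LAMP1, with 6 E-boxes, stood at −0.16. This is a description of promoter letters beside ratios, and binding was not measured.

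A wider set of 151 other genes of the pathway was read in the same way, and 146 of them passed the minimum count. Of these, 4 were called higher (2.74%) and 17 lower (11.6%), where 8.71% and 7.74% of all genes compared were, and the median was −0.07. The same shares over all genes stand beside the calls of each list below. The lists held from 7 to 37 compared genes, so their numbers of calls cannot be ranked. In each list, the genes named as highest and lowest are ordered by the interval end nearest 0, which keeps genes with few counts from leading. The other autophagy genes, 48 compared in 4 lists, held 0 higher and 7 lower calls and a median of −0.19. The 72 other lysosomal genes compared held 3 higher and 4 lower calls and a median of −0.00. The machinery and lysosomal lists thus stood in the same order as the corresponding members. The lists were chosen with earlier results of these data known and come from the same libraries, so this order is no independent support.

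Among 16 other initiation and nucleation genes the median was −0.36 and 3 were called lower, where 7.74% of all genes compared were. RB1CC1, the scaffold (FIP200) of the ULK1 complex, had 6653 counts in vehicle and 2916 in (R)-9b (−0.95), and ATG2B, the partner of ATG2A, had 3511 and 1807 (−0.72). The lipid scramblase gene TMEM41B, named after its values were seen as the remaining call, had 5579 and 2931 (−0.69). ULK3 was highest with 3449 and 4241 (0.54), followed by PIK3R4 with 2651 and 2362 (0.07).

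The 7 other conjugation genes and ATG4 proteases held no call and had a median of −0.00, with ATG4B (0.33) and ATG4A (0.11) highest and TECPR1 (−0.41) and ATG4D (−0.19) lowest by the interval end. ATG16L2 had a larger ratio than ATG4A (0.19) with fewer counts, 478 and 463. Of 13 other cargo and organelle receptors, 12 were compared and the median was −0.29. Of the 12, 3 were called lower, where 7.74% of all genes compared were. BNIP3, a mitophagy receptor known as a hypoxia target, had 41575 counts in vehicle and 10965 in (R)-9b (−1.69). CCPG1, a receptor for endoplasmic reticulum, had 1367 and 334 (−1.80), and 75.5% of its most abundant transcript is shared with the read-through gene DNAAF4-CCPG1, and its estimated transcript counts gave −1.38. BNIP3L, the relative of BNIP3, named after its values were seen, had 14144 and 3967 (−1.60). At the other end, TOLLIP stood at 0.29 and TEX264 at 0.05.

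The 13 autophagosome fusion genes held 1 lower call, where 7.74% of all genes compared were called lower. It was VPS11 of the HOPS tethering complex, with 3813 counts in vehicle and 1783 in (R)-9b (−0.86). VPS41 of the same complex was next at −0.40, while VPS18, also a HOPS core subunit, was highest at 0.47, followed by the SNARE VAMP8 at 0.31.

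Among 37 other lysosomal enzymes and activators the median was 0.07, with 3 genes called higher and 3 lower. The shares over all genes compared were 8.71% higher and 7.74% lower, so no difference is read from these numbers of calls. SGSH, the heparan sulfamidase, had 2334 counts in vehicle and 3742 in (R)-9b (0.92), and ASAH1, the acid ceramidase, had 13031 and 19346 (0.81). On the lower side stood GALC, the galactocerebrosidase of Krabbe disease, with 2315 and 672 counts (−1.55), and NEU1, the lysosomal sialidase that CTSA protects, with 7307 and 2844 (−1.12). MANBA, named after its values were seen, was the remaining lower call with 3561 and 1733 (−0.80).

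Of 17 other lysosomal membrane and sorting genes, 1 was called lower, where 7.74% of all genes compared were. This was the mannose 6-phosphate receptor IGF2R, with 22805 counts in vehicle and 12370 in (R)-9b (−0.64). The sorting receptor SORT1 (−0.61) and, at the other end, SCARB2 (0.60) and CD63 (0.24) were not called. CLN3 had 12 and 23 counts, a log2 ratio of 1.18 and an interval from 0.11 to 2.32. The V-ATPase list held no call among the 18 of 21 genes compared and had a median of 0.02, with TCIRG1 (0.64) and ATP6V0E2 (0.46) highest and ATP6V1C1 (−0.60) and ATP6V1B2 (−0.32) lowest by the interval end. ATP6V0A4, with only 17 and 26 counts, had a log2 ratio of 0.85 and an interval from −0.09 to 1.82. ATP6V0C, the proteolipid of the pump, had 2 and 6 gene counts but 10219 and 9145 estimated counts. Genes on the same strand share 91.9% of the bases of its most abundant transcript.

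**Figure D5:**
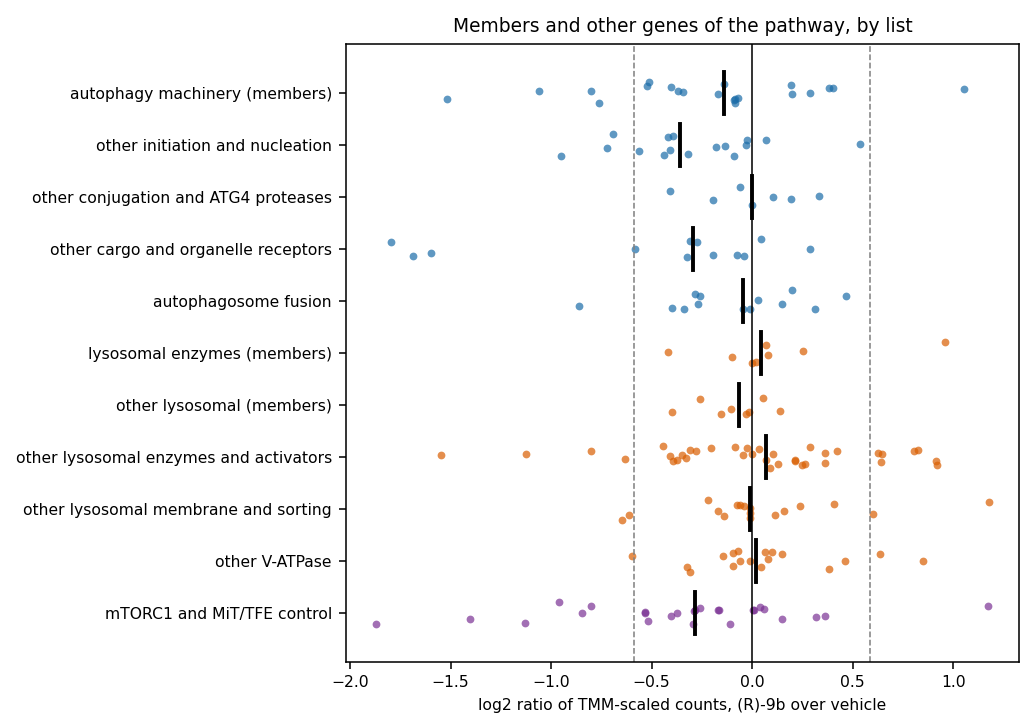
Log2 ratio of TMM-scaled counts, (R)-9b over vehicle, of each gene with at least 10 counts (points) in the groups of members and in the wider lists, with the median of each list as a black bar and dashed lines at 1.5-fold. Colours mark autophagy (blue), lysosomal (orange) and control genes (purple), and points are spread vertically only for legibility. The lowest points belong to SESN2 (−1.87), CCPG1 (−1.80) and BNIP3 (−1.69).

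The genes that set mTORC1 activity and the location of MiT/TFE factors held 1 higher and 6 lower calls of 26 compared, with a median of −0.29. Over all genes compared 8.71% were called higher and 7.74% lower. SESN2, a leucine sensor known as a stress-response gene, had 9674 counts in vehicle and 2245 in (R)-9b (−1.87). DDIT4, an mTORC1 inhibitor known as a target of hypoxia and stress, had 21677 and 6956 (−1.40). The other 4 lower calls, named after their values were seen, were a pair of Rag GTPases and both folliculin partners. RRAGC had 1175 and 456 counts (−1.13), and RRAGD, a known TFEB target, had 1698 and 827 (−0.80). FNIP1 had 3228 and 1524 (−0.84) and FNIP2 had 2128 and 927 (−0.96), while FLCN, the folliculin they bind and also named after its values were seen, stood at −0.29. The higher call was CASTOR1, an arginine sensor, with 67 and 128 counts (1.17). LAMTOR4, of the Ragulator anchor, had 3266 and 3567 (0.36) and was not called.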

How the data were processed

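C4-2B cells treated with vehicle or (R)-9b gave 1 library each, grouped by the treatment label. The authors used STAR to align paired reads of 150 bases to GRCh38 and deposited unnormalized gene counts, in which each read aligned at 1 place and belonged to 1 gene only. The submitters' processing notes name STAR 2.5.1a, featureCounts 1.4.6-p5 and Salmon 0.8.2, and the STAR version differs from that in the methods. The authors also deposited the gene values as CPM and as moderated log2 CPM, which served as alternatives, and estimated counts per transcript. Among genes with 1 to 20 counts, 72.2% of vehicle and 70.3% of (R)-9b values were even, so counts may be of mates rather than pairs.

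Of 60871 lines, 200 repeats of a gene were dropped. Scaling used TMM (edgeR 4.0.16, R 4.3.3; factors 1.02 and 0.979), and intervals used scipy 1.17.1, numpy 2.4.6 and pandas 2.3.3 under Python 3.11.15. Genes with under 10 counts over both libraries were not compared. No test across conditions was run. Exon overlaps and lengths came from GENCODE release 29 and promoters from RefSeq. Figures were drawn with matplotlib 3.10.9.

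The members, the 151 wider genes and the rules were chosen with earlier results of these data known. Named genes are the 8 members with the largest ratio at each end by the interval end nearest 0, all transcription factors and ATG8 genes, and the 2 highest and 2 lowest of each wider list. The remaining members are given for completeness, and others are stated where named. One gene counted in a wider list is not reported here by name. Scripts were tested on simulated data. Alternatives were scaling by total counts, DESeq2 1.42.0 size factors, the upper quartile and TMM without mitochondrial genes, halved counts, estimated transcript counts, deposited CPM and log2 CPM, other thresholds and minimum counts, an added coefficient of variation of 0.1, the mean in place of the median, and all lysosomal genes as the comparison group.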

Additional observations from a re-analysis of the deposited data

Results flagged for a closer look

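For 4 genes a signal stood in the transcript table, outside the gene counts used for the comparisons, far above the limit of 3 counts that a count of 0 allows and above the gene's own count in vehicle. GABARAP had 6719 estimated counts in vehicle against 19 gene counts. ATP6V0C had 10219 estimated counts against 2 gene counts, and CLN3, a lysosomal membrane protein named because of this difference, had 504 against 12. CASTOR1 had 467 against 67. From estimated counts the log2 ratios were −0.24 for GABARAP, 0.09 for ATP6V0C, −0.34 for CLN3 and 1.25 for CASTOR1, against 0.38, no ratio given for ATP6V0C at 2 and 6 counts, 1.18 and 1.17 from gene counts, so GABARAP and CLN3 changed sign and CASTOR1 did not.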

How the results depend on the processing

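Each library stood alone, so depth limited only the genes with few counts, and the spread between cultures was not measured. The 7 called members kept their direction under every scaling and table tried, with MAP1LC3B between −1.58 and −1.40, SQSTM1 between −1.12 and −1.03 and GLA between 0.90 and 1.03. For MAP1LC3B the transcript table listed only 4 of 9 annotated transcripts and held 0.059 estimated counts per gene count in vehicle. For WIPI1 it listed 10 of 11 and held 0.108, so it is a weak check for these genes. Against 2 members called higher, 1 was called under total counts, halved counts and estimated transcript counts (TFEB was lost each time), 0 with a coefficient of variation of 0.1 added or beyond 2-fold, and 12 against a ratio of 1. Against 5 called lower, 2 remained with that variation or beyond 2-fold (MAP1LC3B and SQSTM1), and 20 lay below a ratio of 1. In the wider set, 4 higher calls became 8 by upper quartile, 7 by estimated counts, 0 with the added variation or beyond 2-fold, 12 by the point ratio and 45 against a ratio of 1, and 17 lower calls became 8, 7 and 73 with the added variation, beyond 2-fold and against a ratio of 1. The machinery's median of −0.14 was −0.22 from estimated counts, and the enzymes' 0.05 was −0.0148 by total counts and −0.0643 from estimated counts. Taking means, the difference was −0.32 in place of −0.18. The machinery's sum of −0.53 was −0.59 by total counts, −0.55 by DESeq2 size factors and −0.49 by upper quartile. The enzymes' sum of 0.03 was −0.0334, 0.00524 and 0.0633 in that order, and −0.19 from estimated counts. A change of library scaling moves every log2 ratio by a constant, −0.06 by total counts, and the cause of the other shifts was not tested. An alternative chosen after seeing the data left out genes sharing 30% or more of their exon bases on the same strand and gave −0.17, 0.07 and a difference of −0.24. No paired analysis was possible because each condition had 1 library without a replicate number.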
